A study of Mus musculus with 3 samples.

Results

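The genes described here are 9 genes of glycolysis and its control, Hk1, Hk2, Hk3, Slc2a1, Pfkp, Pfkl, Pfkfb3, Pkm and Ldha, and Hif1a, which encodes the alpha subunit of the transcription factor HIF-1. They were taken by symbol, and all 10 were found among the 55536 genes of the GENCODE M21 mouse annotation. The material was chromatin-bound RNA from 3 libraries of macrophages grown from C57BL/6J bone marrow. The cells received 100 ng/ml Lipid A, the part of lipopolysaccharide that Toll-like receptor 4 binds, for 12 h. After a 12 h washout they received 100 ng/ml Lipid A again, for 90 min. The 3 libraries form 1 group, started from 1 µg (replicate 1), 250 ng (replicate 2) and 500 ng (replicate 3) of RNA depleted of ribosomal RNA, and cells without Lipid A were not analysed here. Each library has its own biological replicate number (1, 2 or 3), always with technical replicate number 1, and all list the same donor. Whether they come from separate cultures or animals is not stated. The spread given is therefore that between libraries, and how much of it is technical is not known.

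Glycolysis turns glucose into pyruvate. Glucose enters through carriers such as GLUT1 (Slc2a1), hexokinases trap it as glucose 6-phosphate, phosphofructokinase commits it to the pathway, and pyruvate kinase and lactate dehydrogenase finish the route to pyruvate and lactate. Macrophages that sense lipopolysaccharide raise glycolysis, and HIF-1, whose alpha subunit is destroyed by the VHL ubiquitin ligase when oxygen is plentiful, is a known activator of many of these genes. RNA on chromatin is rich in transcripts that are still being made or spliced, so the kind of transcript that carries a gene's signal is as informative as its level.

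The libraries held 12671700 (replicate 1), 21747001 (replicate 2) and 16915406 (replicate 3) expected counts in total. Levels are TPM, a length-corrected abundance that can be compared between genes. They come from the deposited gene table and are given per library or as mean ± SD (n = 3). Protein-coding genes held 34.1%, 27.4% and 29.4% of all TPM in replicates 1, 2 and 3, so a level also depends on what the other features held. Each of 8 macrophage markers reached 1 TPM in every library, with sums of 757 to 974 TPM. The sums of the 6 neutrophil, 4 T cell, 4 B cell and 4 fibroblast markers stayed between 0.00 and 1.36 TPM. The 5 erythroid markers summed to 4.0 to 5.34 TPM, of which Alas2, an enzyme of haem synthesis, held most. The other transcript table listed the T cell gene Cd3d at 16.3 TPM where the gene table listed 0, so a 0 here means only that the gene is listed at 0.

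All 10 genes reached 1 TPM in each library, as did 41.1% of the 22015 protein-coding genes. At 10 TPM in each library, 7 of the 10 remained, against 19.1% of protein-coding genes. Hk2, Pfkl and Slc2a1 fell below that limit. The median over the 10 genes was 27.02 ± 6.25 TPM, beside 9.65 ± 0.510 TPM over the 9688 protein-coding genes whose mean reached 1 TPM. In order of mean TPM the genes ran Hk3, Pfkp, Pkm, Pfkfb3, Hif1a, Hk1, Ldha, Hk2, Pfkl and Slc2a1. Of the neighbours in this order, only Hk3 and Pfkp had ranges over the libraries that did not overlap. Among all 45 pairs of the 10 genes the ranges were apart for 36 and overlapped for 9, and 40 pairs had the same order in every library. An exact sign-flip permutation test over 3 libraries cannot go below p = 0.25, so no difference between genes could pass a threshold of 0.05.

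**Figure D1:**
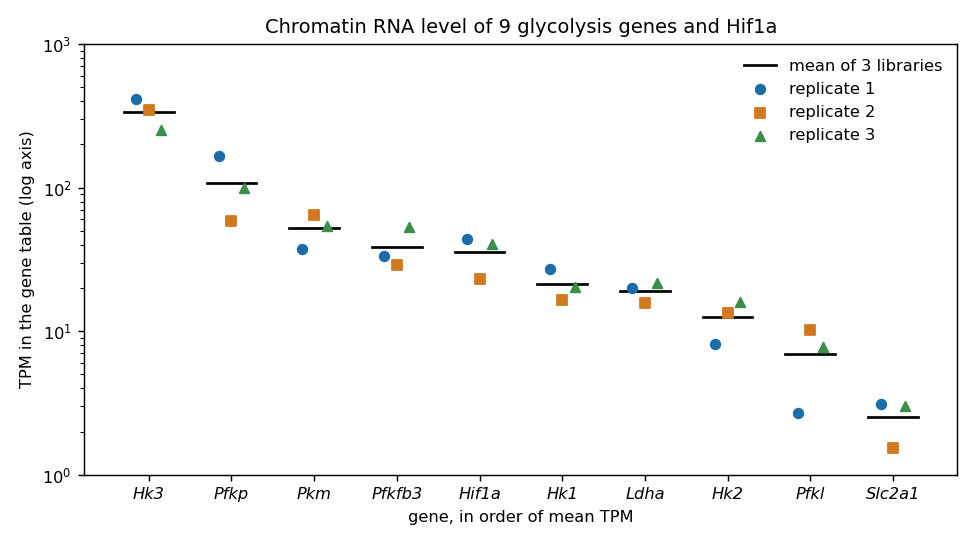
TPM of the 10 genes (log axis) in each library, with the mean of 3 libraries as a bar, in order of mean TPM. Hk3 lies above all other genes in every library (251 to 412 TPM), Slc2a1 has the lowest mean, and the neighbours from Pfkp to Slc2a1 overlap.

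Retained-intron transcripts, which keep stretches that coding transcripts splice out, were annotated for 7 of the 10 genes and not for Hk3, Hk2 and Slc2a1. They held 50% or more of TPM in each library for Pfkp and Pfkfb3, 2 of the 7, against 37.0% of the 5881 genes with such a transcript and at least 1 TPM in each library. The median retained-intron share of the 7 genes was 44.6 ± 0.184%, beside 48.1 ± 2.41% over the 5881 genes. By share of expected counts, without weighting for length, the median of the 7 was 28.6 ± 0.556%, since several of these transcripts are short. By mean share, protein-coding transcripts held the larger part of the signal for Slc2a1, Hk1, Hk2, Pkm and Ldha, near 50% for Hk3 and Hif1a, and the smaller part for Pfkl, Pfkfb3 and Pfkp. By expected counts the protein-coding share was 70.9% for Pfkl, 66.1% for Pfkfb3, 67.9% for Hk3 and 88.6% for Hif1a, so of the last 3 genes only Pfkp still had the smaller part there. The tables count reads on annotated transcripts, so RNA that is not yet spliced and RNA that keeps an intron for good cannot be told apart.

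**Figure D2:**
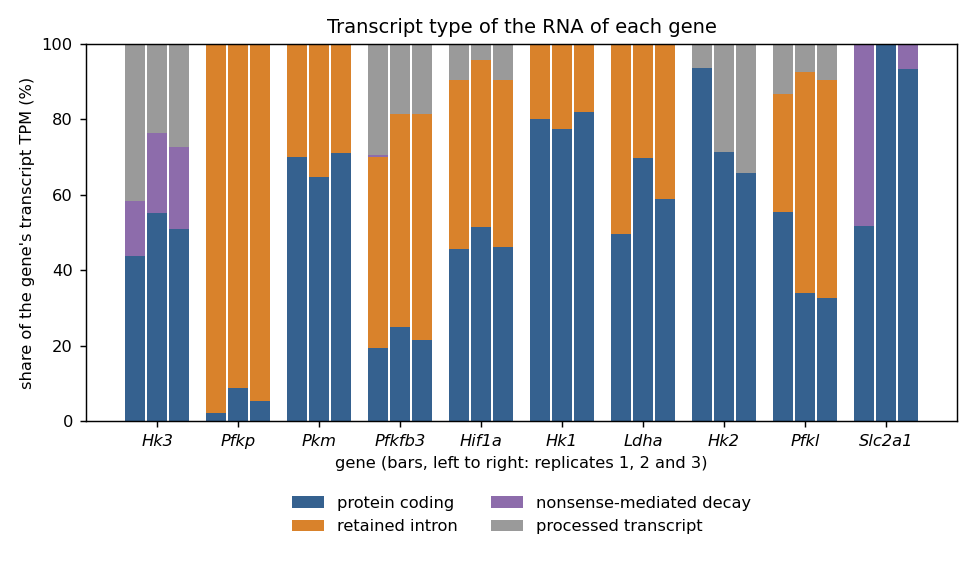
Share of each gene's transcript TPM (%) on 4 annotated transcript types, with 1 bar per library in the order of replicates 1, 2 and 3 and genes in order of mean TPM. Pfkp is almost wholly of the retained-intron type (91.4% to 98.0%), while Hk3, Hk2 and Slc2a1 have none.

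The first step of the pathway in the cell is glucose entry, and the gene of its best known carrier had the lowest level of the set. Slc2a1 (chr4:119108711-119137983, plus strand, mm10) had 3.09, 1.53 and 3.00 TPM in replicates 1, 2 and 3, on 86, 90 and 133 expected counts. Replicate 2 was lowest, and the range overlapped that of Pfkl. Most of the Slc2a1 signal, 81.7 ± 26.2%, lay on protein-coding transcripts, and 18.4 ± 26.2% on Slc2a1-204, annotated for nonsense-mediated decay. That second share came mainly from replicate 1, at 48.4%, and was 0.00% and 6.67% in replicates 2 and 3. The other transcript table gave a higher mean for Slc2a1, 5.55 TPM, the widest gap between tables among the 10 genes (2.19 times).

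The carrier genes around Slc2a1 were unequal. Of 8 glucose and lactate transporter genes in a list of relatives, 5 reached 1 TPM in each library and 1 reached 10 TPM. That gene was Slc2a6, a glucose carrier family member found on lysosomes of macrophages, with 205, 188 and 206 TPM. Bsg, the chaperone of the lactate carriers, had 7.79 ± 1.56 TPM, and Slc16a3, the lactate exporter MCT4, had 4.61 ± 0.347 TPM. Slc2a3, the high-affinity glucose carrier GLUT3, had 0.190 ± 0.200 TPM on 4, 27 and 5 expected counts, but 1.715 TPM in the other transcript table. Slc16a1 had the lowest mean of the list, 0.113 ± 0.0870 TPM.

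Among the hexokinases, the Hk3 gene held nearly all of the signal. Hk3 (chr13:55005985-55021385, minus strand), the hexokinase isoform typical of myeloid cells, had 412, 346 and 251 TPM in replicates 1, 2 and 3 and ranked 95th among protein-coding genes. It supplied 92.2%, 92.1% and 87.4% of the summed TPM of Hk1, Hk2 and Hk3. Hk1 (chr10:62268855-62379908, minus strand), the isoform found in most tissues, had 27.02, 16.6 and 20.4 TPM. Hk2 (chr6:82725025-82774454, minus strand), the inducible isoform bound to mitochondria, had 8.10, 13.3 and 16.01 TPM. Hk3 lay far above the other two in every library.

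On the log2(TPM + 1) scale, Hk1 minus Hk3 was -3.92 ± 0.374 and Hk2 minus Hk3 was -4.67 ± 0.808, with Hk3 higher in 3 of 3 libraries each time. The exact sign-flip p was 0.25 for each, and 0.25 after Benjamini-Hochberg adjustment over 5 isozyme differences. Hk1 minus Hk2 was 1.62 in replicate 1 but 0.30 and 0.33 in replicates 2 and 3, with a mean of 0.75 ± 0.755 (exact p = 0.25). Without replicate 1 the mean was 0.32, and without length correction it was -0.05, so the order of Hk1 and Hk2 was not resolved.

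The 3 hexokinase genes differed in transcript type. Hk3 has 8 annotated transcripts, none of the retained-intron type. Protein-coding transcripts held 49.97 ± 5.82% of Hk3 TPM, processed transcripts, which are noncoding, 30.8 ± 9.50%, and a transcript annotated for nonsense-mediated decay 19.2 ± 3.91%. The highest by mean was the protein-coding Hk3-208 with 96.5, 109 and 72.4 TPM. It was followed by the 639-base processed transcript Hk3-205 with 144, 64.4 and 55.3 TPM, which took the top place in replicate 1. In the other transcript table processed transcripts led, with 51.7 ± 5.53% against 40.03 ± 3.46% for protein-coding ones, and the 435-base processed Hk3-207 was highest at 152 TPM. By expected counts, processed transcripts held only 5.76 ± 2.99% of Hk3, against 67.9 ± 1.35% for protein-coding ones. Hk1 carried 79.9 ± 2.29% on protein-coding transcripts and 20.1 ± 2.29% on retained-intron transcripts. Its highest transcript was Hk1-212, a short protein-coding model of 896 bases with 15.1, 7.71 and 7.39 TPM. Hk2 carried 76.9% on protein-coding transcripts, mostly the full-length Hk2-201 with 5.74, 7.82 and 9.52 TPM, and the rest on the processed transcript Hk2-202.

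Genes that share bases with a hexokinase gene can share its reads, since the sources used here do not say whether counting used strand. The netrin receptor gene Unc5a, on the plus strand, overlaps the end of Hk3 by 34 bases and had 20.0, 13.0 and 11.4 TPM, in the same order over the libraries as Hk3. Expected counts of Hk3 were whole numbers in replicates 1, 2 and 3 (8128, 14977 and 8039), as were those listed for Unc5a (606, 714 and 491). The part of Unc5a in the Hk3 level was not tested. The antisense genes Gm17034 in Hk2 and Hk1os in Hk1 had 2.88 ± 0.3 and 0.693 ± 0.457 TPM. The neutrophil markers beside Hk3 summed to 0.34, 0.00 and 0.38 TPM, with Elane, Ly6g and S100a8 listed at 0 in every library. The hexokinase relative Hkdc1 was listed at 0 in every library.

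Phosphofructokinase showed the widest contrast between level and transcript type. Pfkp (chr13:6579768-6648777, minus strand), the platelet-type subunit, had 165, 58.3 and 98.9 TPM in replicates 1, 2 and 3. Pfkl (chr10:77986947-78010083, minus strand), the liver-type subunit, had 2.71, 10.3 and 7.8 TPM, and the muscle-type gene Pfkm had 2.65, 3.82 and 2.41 TPM. Replicate 1 was thus highest for Pfkp and lowest for Pfkl. Pfkp held 89.4 ± 8.23% of the summed TPM of the 3 genes.

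The Pfkp signal lay almost wholly on retained-intron transcripts. They held 98.0%, 91.4% and 94.4% of Pfkp TPM, and the mean share stood at percentile 99.2 among the 5881 genes that have such a transcript and at least 1 TPM in each library. In TPM, Pfkp had 161, 53.2 and 93.4 on retained-intron transcripts and 3.29, 5.04 and 5.17 on protein-coding ones. Replicate 1 was therefore highest for the first kind and lowest for the second. All 7 retained-intron transcripts of Pfkp were above 0 in each library, from 1.42 ± 0.633 TPM for Pfkp-206 to 24.5 ± 11.7 TPM for Pfkp-212. In the other transcript table the retained-intron share was 73.4 ± 4.56% and the protein-coding share 17.9 ± 4.89%.

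Pfkp-212 also took most of the counts. It is 8681 bases long, with 6955 bases (80.1%) outside the exons of coding transcripts, and received 3393, 2255 and 2933 expected counts. These were 71.3%, 68.6% and 69.2% of the counts of Pfkp. Its last exon, chr13:6588955-6596062, is 7108 bases long. That exon runs straight through a 153-base coding exon, chr13:6593101-6593253, and intron sequence on either side. The 153-base exon is an alternative: the protein-coding Pfkp-201 uses it as exon 16 of 22, while Pfkp-207 uses another of the same length, chr13:6597859-6598011, in its place. The pair is printed because most Pfkp counts fall on the transcript that reads through the Pfkp-201 exon. Capitals mark the 63 positions at which they differ, and 90 positions (58.8%) are the same, counted without gaps.
Pfkp-207 exon 16: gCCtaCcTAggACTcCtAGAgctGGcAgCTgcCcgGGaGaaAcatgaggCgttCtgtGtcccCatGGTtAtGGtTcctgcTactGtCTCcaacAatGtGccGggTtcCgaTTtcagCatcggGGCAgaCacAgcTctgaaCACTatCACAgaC
Pfkp-201 exon 16: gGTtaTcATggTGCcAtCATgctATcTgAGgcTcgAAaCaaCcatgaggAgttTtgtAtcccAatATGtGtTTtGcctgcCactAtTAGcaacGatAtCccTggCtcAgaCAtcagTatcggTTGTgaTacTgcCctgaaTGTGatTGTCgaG

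The spliced transcripts with these exons were low. Pfkp-207 had 3.29, 2.76 and 5.17 TPM, and Pfkp-201 had 0.00, 1.82 and 0.00 TPM. The long exon of Pfkp-212 also reads over the splice donor of the Pfkp-201 exon, at chr13:6593076-6593125 on the minus strand. The last 25 bases of the exon and the 25 bases behind it are shown, with the first 2 bases of the intron in capitals.
Pfkp-212 across the donor: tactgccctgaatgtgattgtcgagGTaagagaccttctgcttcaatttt

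Counted on protein-coding transcripts only, the gap between the 2 phosphofructokinase genes shrank. On all transcripts Pfkl minus Pfkp was -5.48, -2.40 and -3.51 on the log2(TPM + 1) scale, with a mean of -3.79 ± 1.56 (exact sign-flip p = 0.25, adjusted 0.25). On protein-coding transcripts the mean was -0.67 ± 0.208 (exact p = 0.25), with Pfkp still higher in 3 of 3 libraries. Pfkp moved from the 2nd place among the 10 genes to the 8th, and Pkm, Hk1, Hif1a, Ldha, Hk2 and Pfkfb3 joined Hk3 above it. Pfkl itself was spread over types, with 40.7% on protein-coding, 49.2 ± 15.5% on retained-intron and 10.1% on processed transcripts. By expected counts protein-coding transcripts led, with 70.9 ± 6.40% against 26.3 ± 6.50% for retained-intron transcripts. It also varied most among the 10 genes, with an SD of log2 CPM over the libraries of 0.80. This was at percentile 95.1 among the 9688 protein-coding genes whose mean reached 1 TPM. The lowest Pfkl value rested on 74 counts.

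**Figure D3:**
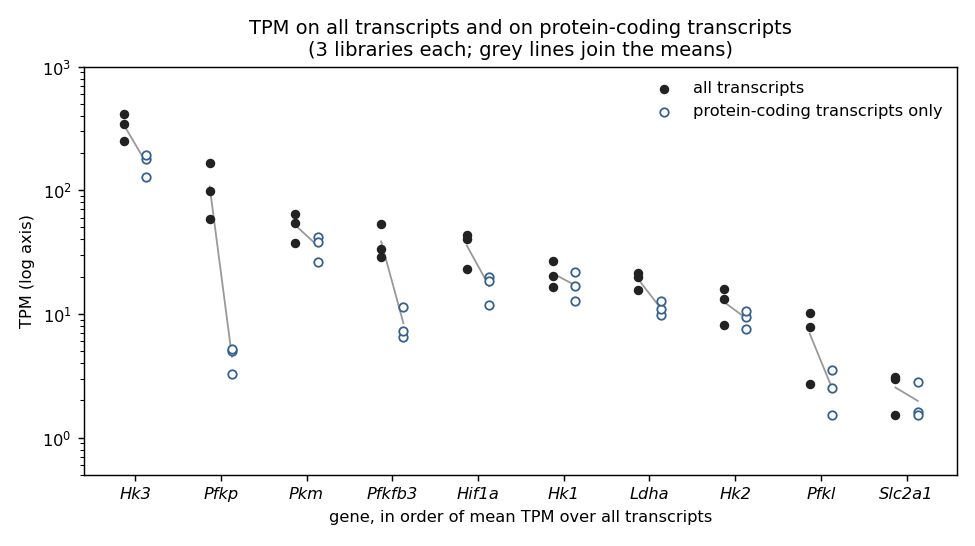
TPM (log axis) of each gene in 3 libraries, on all transcripts (filled) and on protein-coding transcripts only (open), with lines between the means. Pfkp drops from 107 to 4.50 TPM, the steepest line, while Hk3 stays highest at 167 TPM.

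Pfkfb3 (chr2:11471433-11554077, minus strand) encodes the enzyme that makes fructose 2,6-bisphosphate, the strongest activator of phosphofructokinase. It had 33.6, 29.1 and 53.0 TPM in replicates 1, 2 and 3, highest in replicate 3. Its 21 annotated transcripts shared this signal widely, and 9 of them were above 0 in each library. Retained-intron transcripts held 50.5%, 56.5% and 59.9%, processed transcripts 22.2 ± 6.35% and protein-coding transcripts 21.96 ± 2.75%. The highest was the retained-intron Pfkfb3-211 with 6.61, 6.35 and 13.4 TPM. As a share of expected counts, which does not weight short transcripts up, the retained-intron share of Pfkfb3 was 27.7 ± 1.02%. Its 4 relatives all reached 1 TPM in each library and none reached 10 TPM in every library: Pfkfb4 had 9.42 ± 2.12 TPM, Pfkfb2 6.58 ± 1.20 and Tigar, which opposes Pfkfb3, 1.76 ± 0.325.

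Pkm (chr9:59656368-59679375, plus strand) encodes pyruvate kinase of the muscle type and makes 2 enzymes by choosing between neighbouring exons. It had 37.6, 64.7 and 53.9 TPM in replicates 1, 2 and 3, lowest in replicate 1. Protein-coding transcripts held 68.7 ± 3.49% and retained-intron transcripts 31.3 ± 3.49%, the latter 12.2 ± 3.39% in the other transcript table. Pkm-202 uses the upstream exon, chr9:59675029-59675195, known for the enzyme PKM1 of muscle and brain. Pkm-201 uses the downstream exon, chr9:59675568-59675734, known for PKM2 of growing and immune cells. Each is exon 9 of 11, is 167 bases long and is wholly coding, and 103 positions (61.7%) are the same. Capitals mark the 64 that differ.
Pkm-202 exon 9: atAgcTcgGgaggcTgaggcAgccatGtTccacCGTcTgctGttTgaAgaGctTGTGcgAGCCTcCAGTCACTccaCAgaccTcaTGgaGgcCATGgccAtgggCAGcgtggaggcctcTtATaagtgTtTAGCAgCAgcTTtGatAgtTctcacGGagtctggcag
Pkm-201 exon 9: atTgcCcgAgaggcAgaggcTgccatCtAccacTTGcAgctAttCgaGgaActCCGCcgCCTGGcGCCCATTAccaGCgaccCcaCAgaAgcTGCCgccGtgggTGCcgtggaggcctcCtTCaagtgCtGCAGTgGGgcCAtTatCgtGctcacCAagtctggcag

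Of these 2 transcripts, the one with the downstream exon was higher in every library. Pkm-201 had 11.1, 22.8 and 18.2 TPM in replicates 1, 2 and 3, and Pkm-202 had 3.94, 7.57 and 10.1 TPM. Of the 2 together, Pkm-201 held 73.8%, 75.1% and 64.3%, with a mean of 71.1 ± 5.86%. The share was 74.9 ± 5.37% by expected counts and 69.0 ± 1.43% in the other transcript table. The 2 transcripts also differ in their end exons, so this split does not rest on the alternative exons alone. Pkm-201 and Pkm-202 held 32.8 ± 2.99% and 13.6 ± 4.48% of Pkm TPM, so the split covers only part of the Pkm signal. In the other transcript table the 356-base protein-coding Pkm-208 was the highest Pkm transcript, with 26.4 TPM. The splicing regulators known for the Pkm exon choice were all above 10 TPM in each library. Hnrnpa2b1 had 771 ± 55.6 TPM, Srsf3 120 ± 18.3, Hnrnpa1 103 ± 8.48 and Ptbp1 54.1 ± 13.3.

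Another gene model lies over these exons. Gm49759 (chr9:59672814-59676700), a same-strand single-exon gene model to be experimentally tested, covers both alternative exons and the introns beside them. It had 12.0, 16.4 and 14.4 TPM, on 481, 1165 and 787 expected counts, beside 656, 2152 and 1358 for Pkm. The retained-intron transcript Pkm-205, which ends 1039 bases after the start of its 8th exon without reaching the alternative exons, had 11.2, 21.6 and 14.3 TPM. Reads of unspliced Pkm RNA and of Gm49759 cannot be told apart in these tables.

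**Figure D4:**
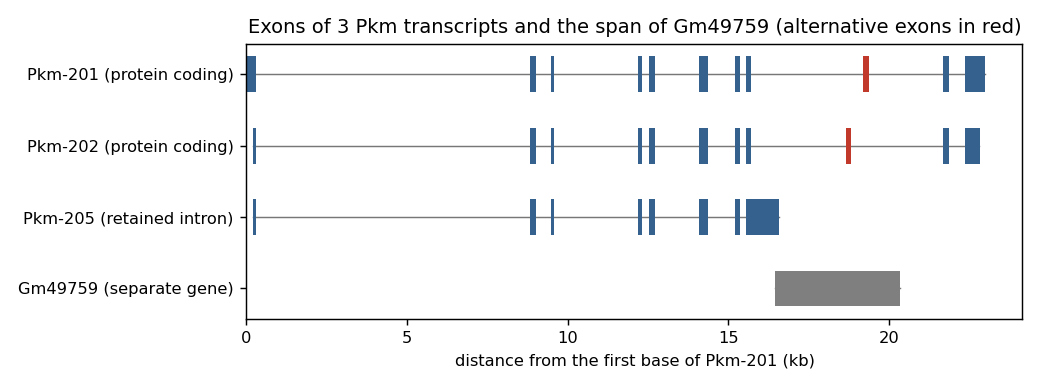
Exons (boxes) of 3 Pkm transcripts and the span of Gm49759, by distance in kb from the first base of Pkm-201, with the 2 alternative exons in red. Gm49759 covers both red exons, and the last exon of Pkm-205 ends upstream of them.

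Ldha (chr7:46841475-46855627, plus strand) encodes the lactate dehydrogenase subunit that favours lactate. It had 20.0, 15.6 and 21.6 TPM in replicates 1, 2 and 3 and was the steadiest of the 10 genes. Its SD of log2 CPM was 0.08, at percentile 7.3 among the 9688 protein-coding genes whose mean reached 1 TPM. Protein-coding transcripts held 49.5%, 69.7% and 58.8% of its TPM and retained-intron transcripts the rest. The full-length Ldha-202 had 4.67, 6.29 and 6.82 TPM, and the retained-intron Ldha-204, of 625 bases, 6.19, 2.58 and 6.13 TPM. Ldha-204 therefore lay above Ldha-202 in replicate 1 only. Ldhb, the subunit of heart, was listed at 0 in every library, and the processed pseudogenes Ldha-ps and Ldha-ps2 stayed at or below 0.09 TPM.

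By their median, the other enzymes of the pathway stood lower, in a list that also holds Ldhb and Hkdc1, both listed at 0. Of 17 further glycolysis genes, 12 reached 1 TPM in each library and 5 reached 10 TPM, and the list median was 4.28 ± 0.402 TPM. Eno2, the enolase first described in neurons, was highest with 90.1, 138 and 120 TPM. Aldoa, the aldolase of most tissues, had 36.8 ± 7.497 TPM, Gapdh 31.8 ± 7.63 and Eno1, the common enolase, 19.6 ± 5.54. Pgk1, which makes the first ATP of the pathway, had 4.25 ± 0.791 TPM. Of 11 isozyme and transporter genes known from other tissues, such as Pck1 of liver and kidney, none reached 1 TPM in any library of the gene table. The other transcript table gave liver pyruvate kinase Pklr 3.20 TPM.

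**Figure D5:**
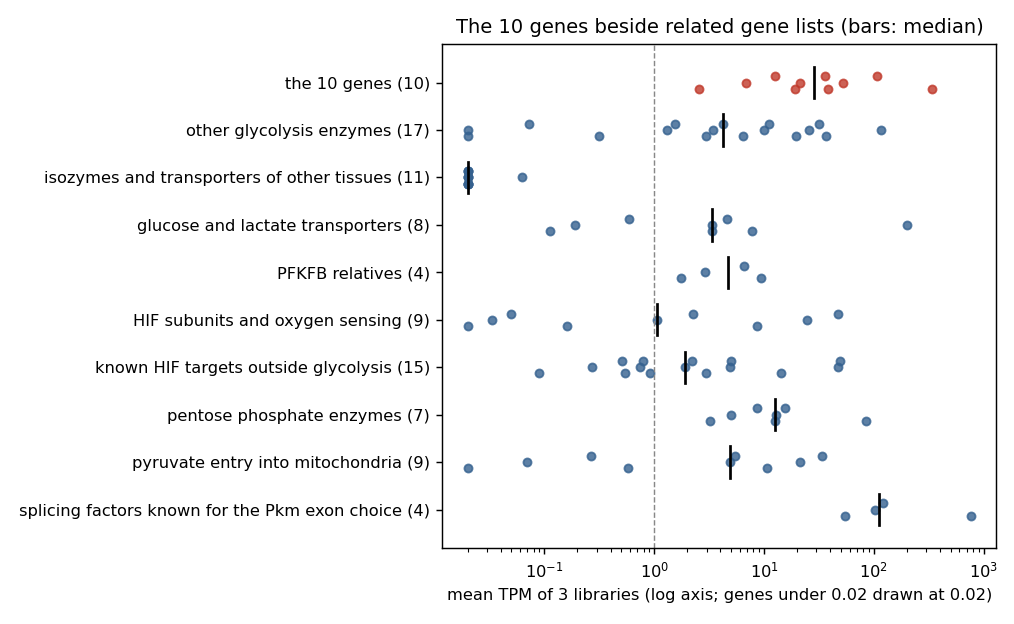
Mean TPM over 3 libraries (log axis) of the 10 genes and of 9 related lists, 1 dot per gene, with the median of these means as a bar and 1 TPM as a dashed line. Genes under 0.02 TPM are drawn at 0.02; the isozymes of other tissues gather there, and all 10 genes lie above 1 TPM.

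The branches beside glycolysis were also measured. All 7 pentose phosphate genes reached 1 TPM in each library and 4 reached 10 TPM, led by Pgd, which makes NADPH, with 85.3 ± 24.6 TPM. Rpe had 15.5 ± 2.28 and Tkt, the transketolase, 12.8 ± 2.84 TPM, and Rpia was lowest with 3.22 ± 0.799. Of 9 genes for the entry of pyruvate into mitochondria, 5 reached 1 TPM and 2 reached 10 TPM in each library. The carrier subunit Mpc1 had 33.6 ± 9.79 TPM, the pyruvate dehydrogenase subunits Pdhb and Pdha1 had 21.1 ± 1.22 and 10.6 ± 1.34, and the inhibitory kinase Pdk4 was listed at 0.

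Hif1a (chr12:73901375-73947530, plus strand) had 43.7, 23.1 and 40.3 TPM in replicates 1, 2 and 3, lowest in replicate 2. Its retained-intron share was 44.8%, 44.5% and 44.4%, and its protein-coding share 45.7%, 51.3% and 46.1%. In the other transcript table the retained-intron share led, with 48.8 ± 3.55% against 37.3 ± 1.33%. All of the retained-intron share came from Hif1a-204, a 693-base model with 19.6, 10.3 and 17.9 TPM. The full-length protein-coding Hif1a-201, of 4724 bases, had 10.7, 7.04 and 12.1 TPM. Because Hif1a-204 is short, it held only 11.7%, 9.22% and 10.2% of the Hif1a counts. Hif1a-204 keeps a whole intron of 82 bases, and the donor at its start, chr12:73928107-73928156, reads as follows with the first 2 intron bases in capitals.
Hif1a-204 across the donor: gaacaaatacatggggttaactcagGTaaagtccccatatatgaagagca

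The partners of Hif1a were unequal as well. Arnt, the beta subunit that HIF-1 alpha binds, had 48.8, 48.9 and 43.4 TPM, while Epas1, which encodes HIF-2 alpha, had 0.02, 0.02 and 0.06 TPM on 1, 2 and 5 counts. Hif1a minus Epas1 was 5.45, 4.56 and 5.28 on the log2(TPM + 1) scale, with a mean of 5.10 ± 0.475 (exact sign-flip p = 0.25, adjusted 0.25). With Epas1 at 3.69 TPM in the other transcript table, the difference there was 3.15 ± 0.295. Of the prolyl hydroxylases that mark HIF-1 alpha for destruction, Egln2 had 24.7 ± 3.02 TPM and Egln1 1.07 ± 0.429, and Egln3 was listed at 0. Vhl had 2.27 ± 0.350 TPM in the gene table and 13.0 TPM in the other table, and Hif1an, the asparagine hydroxylase, had 8.60 ± 0.825 TPM. In all, 4 of these 9 genes reached 1 TPM in each library and 2 reached 10 TPM.

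Of 15 known HIF targets outside glycolysis, 7 reached 1 TPM in each library and 3 reached 10 TPM, and the list median was 1.37 ± 0.324 TPM. Vegfa, the vascular growth factor, had 34.8, 47.9 and 65.2 TPM, the histone demethylase Kdm3a 47.5 ± 4.69 and the collagen prolyl hydroxylase P4ha1 14.3 ± 4.15. Pdk1, an inhibitory kinase of pyruvate dehydrogenase, had 0.790 ± 0.157 TPM and Ddit4 was lowest with 0.0900 ± 0.0790. In these libraries of 1 condition, no value tells how any of these genes responded to Lipid A.

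HIF-1 binds DNA at sites with the core ACGTG or GCGTG. RefSeq promoters (GRCm38.p6, 250 bases before to 50 after each start) were searched on both strands for these letters. ACGTG was present in 19.6% of 32851 promoters and in 9 of the 14 promoters of the 10 genes, and 8 of the 10 genes, all but Pfkp and Pfkl, had it in at least 1 promoter, beside 21.8% of the 27025 genes in the table. CACGTG holds it on each strand and was counted as 2 matches. GCGTG was present in 32.4% of promoters and in 7 of these 14. By gene, 6 of the 10 had GCGTG, beside 35.15% of the 27025 genes. Pfkp, with 4 matches, and Pfkl, with 1, were among the 6. The background shares are over all promoters and genes searched and were not matched to the 10 genes for expression, base content or promoters per gene. Windows from 4 genes long known as HIF targets are printed, with the letters on the gene's strand (ACGTG, or CACGT where the match is on the other strand) in capitals.
Ldha, 145 bases before the start: ggtgtcgcagcaCACGTggagccactctt
Pfkfb3, 53 bases before the start: cacccttctctcCACGTgaaagggggctg
Hk2, 226 bases before the start: agccacggaacaCACGTcccaactctggc
Slc2a1, 36 bases before the start: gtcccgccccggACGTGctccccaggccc
These matches describe the letters only, and binding was not measured.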

How the data were processed

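Chromatin-associated RNA was sequenced in 3 libraries of 1 group. Per the labels and file headers, the authors deposited, for each library, gene and transcript tables from alignments to the transcriptome, with expected counts, TPM and effective length, and another transcript table made directly from the reads, with estimated counts and TPM. All used mm10 and annotation M21, and neither aligner nor quantifier is given in the sources used here. The 26345 rows that are no gene held 1.34%, 0.292% and 0.416% of the counts in replicates 1, 2 and 3 and were left out. Aldoa has 2 gene entries, and the older identifier was kept.

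No pair of libraries agreed within counting noise (chi-square per degree of freedom of rounded counts, 30.5 to 157), so none was counted as 1 library deposited more than once. Transcript shares were computed from transcript TPM. Differences between genes were taken within each library on log2(TPM + 1) and tested with a sign-flip permutation test, exact and two-sided. This understates differences of low genes. Expected counts were rounded for edgeR 4.0.16. It supplied the TMM factors and log2 CPM (prior count 1), from which the SD over libraries was taken. Percentiles of that SD are among the 9688 protein-coding genes whose mean reached 1 TPM. DESeq2 1.42.0 gave alternative size factors, and both packages ran in R 4.3.3. The edgeR estimate of each gene's spread between libraries (dispersion), which is not reported here, was tested on simulated counts. Python 3.11.15 was used for the rest.

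The 10 genes, the lists and the tests were chosen with earlier results of these data known. Named were all 10 genes, their highest transcript and highest retained-intron transcript, the 3 highest and the lowest gene of each list by mean TPM, and a fixed set of pathway genes, and further genes named in the text were chosen after their values were seen. Not every gene covered by this rule is reported here. Alternatives were the other transcript table, rescaling to protein-coding genes, protein-coding transcripts only, another pseudocount, other limits, counts without length correction, and leaving out each library.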

Additional observations from a re-analysis of the deposited data

How the results depend on the processing

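No paired analysis was possible because the 3 libraries form 1 group. Of the 5 isozyme differences, all kept their direction under the alternatives except Hk1 minus Hk2, which was -0.048 on the log2 CPM scale without length correction, with TMM and with DESeq2 size factors alike. Leaving out each library in turn gave 0.32 to 0.98 for it, and without replicate 1 it was 0.32. With protein-coding transcripts only, 3 of the 10 genes kept their rank by level; the cause was not tested. Neighbours also changed places elsewhere: Ldha stood above Hk1 in the other table and without replicate 1, and Hif1a above Pfkfb3 without replicate 3. The median over the 10 genes was 36.3 TPM in the other transcript table, whose cause was not tested, and 88.9 TPM when TPM was rescaled to protein-coding genes, which raises every gene by construction. The median retained-intron share was 47.7% in the other table and 28.6% by expected counts, which do not weight short transcripts up. Of 64 alternative values for single genes, those that leave out a library apart, 46 moved by more than the SD between libraries and 18 did not. The 46 include all 10 values rescaled to protein-coding genes, which rise by construction. Retained-intron and protein-coding shares of the same gene were counted separately, though they depend on each other. Depth limits Pfkl and Slc2a1 most, with 74 and 86 counts in replicate 1, and single transcripts of either rest on fewer.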

Other observations

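Among 84 genes of the lists, the one closest in level to each of the 10 genes was found by the mean absolute difference of log2(TPM + 1) over 3 libraries. Slc2a6 was closest to Hk3 (0.73), Srsf3 to Pfkp (0.44), Vegfa to Pkm (0.27), Aldoa to Pfkfb3 (0.17), Mpc1 to Hif1a (0.22) and Tkt to Hk2 (0.18). Pdhb was closest to both Hk1 (0.29) and Ldha (0.18), Pgls to Pfkl (0.35) and Pfkfb1 to Slc2a1 (0.16). Hk3 thus had no list gene within its own range, since Slc2a6 reached 206 TPM and the lowest Hk3 value was 251 TPM.

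Several further genes overlap the 10 genes and had reads of their own. Pitrm1, a mitochondrial protease gene on the plus strand, shares 748 bases with the end of Pfkp and had 21.4, 22.9 and 24.5 TPM. Gm15283, antisense over the whole of Hif1a, had 4.31, 1.60 and 2.46 TPM, with replicate 1 highest and replicate 2 lowest as for Hif1a. In Pfkfb3, the antisense gene Gm10851 had 1.43 ± 0.169 TPM and the same-strand Gm37975 had 2.37 ± 0.470 TPM. In Slc2a1, the antisense gene Gm12867 had 1.76 ± 0.373 TPM, on 5 or 6 counts in each library. Expected counts were whole numbers in each library for Pfkfb3 and Slc2a1, and not whole in any library for Pfkp and Hif1a. The part of these overlapping genes in the levels of the 10 genes was not tested.

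Pcx, which turns pyruvate into oxaloacetate, was the pyruvate gene on which the tables differed by the most TPM. It had 0.45, 0.18 and 0.17 TPM in the gene table and a mean of 31.6 TPM in the other transcript table. The tables thus disagree on its level.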
